A study of Mus musculus with 2 samples.

Results

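Nonclassical monocytes were examined as 322 of the 20364 barcodes kept from both libraries, 203 of 10313 in the library from C435A tumours and 119 of 10051 in the library from WT tumours. The members were chosen by their own transcript counts, given here as unique molecular identifiers (UMIs, each standing for 1 captured RNA molecule). A member carried at least 500 UMIs, under 20% of them mitochondrial, at least 1 UMI of Csf1r and at least 3 UMIs summed over Ace, Treml4, Adgre4, Eno3 and Spn. That sum could not be below the sum of the classical monocyte genes Ly6c2, Ccr2, Vcan and F13a1. Barcodes were left out if they held over 3 UMIs of C1qa, C1qb and C1qc, any UMI of Plet1, Car4 or Krt79, a sum of 2 UMIs or more over the T cell genes Trac, Cd3d, Cd3e and Cd3g, or any UMI of Ncr1, Klre1 or Cd79a. The levels of these genes are therefore a description of the choice and not a result.

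The study placed B16F10 melanoma cells in C57 mice and sequenced single live CD45-positive, 7-AAD-negative cells from the lung metastases. One library, named C435A here, is labelled with the IRF7-C435A mutant genotype, and the other, named WT, with the wild-type one. The labels give the genotype beside the B16F10 line, call the cells melanoma cells, and describe mice bearing either tumour. The genotype is therefore read here as that of the tumour cells and the monocytes as host cells, which the labels do not state outright. There was 1 library per genotype and the number of mice in each was not given. For that reason no comparison below has a test, and every interval is a 95% counting interval that leaves out the spread between animals.

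Nonclassical monocytes are the Ly6C-low monocytes of mouse blood, which crawl along the inside of small vessels and are known in the lung for scavenging tumour material and drawing in natural killer cells. They arise largely from classical, Ly6C-high monocytes, and the nuclear receptor Nr4a1 is needed for their production. The fractalkine receptor Cx3cr1 keeps them alive and at the vessel wall, and the integrin Itgal holds them on the endothelium.

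Some members carried RNA of a second cell type. A barcode was called mixed if it held at least 10 UMIs of any of 6 marker lists, those of melanoma cells, neutrophils, conventional dendritic cells, plasmacytoid dendritic cells, B cells or plasma cells. There were 25 mixed members in the C435A library, holding 19.9% of its member UMIs, and 27 in the WT library, holding 51.0% of its member UMIs. The 3 deepest WT members, with 71486, 56696 and 23209 UMIs, held 1073, 910 and 690 UMIs of the melanoma list. Neutrophil markers reached 10 UMIs in 20 C435A members and 16 WT members. The melanoma markers summed to 38.1 CPM (UMIs of a gene or list per 1e+06 UMIs of the cells summed) in C435A members and 4419 CPM in WT members, and to 46.0 and 104 CPM once mixed barcodes were left out. Scrublet, a doublet caller, marked 4 C435A members and 14 WT members, of which 3 and 12 were mixed barcodes. Values without mixed barcodes are therefore given beside or in place of those of all members, a division made after the data had been seen. The 178 C435A and 92 WT members that remained had median depths of 3314.5 and 3291 UMIs. The libraries shared 24 barcode sequences, none of which was a member in both.

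Among the members the sum of the 5 chosen markers had a median of 9 UMIs in C435A and 9 UMIs in WT, with highest values of 36 and 24. Ace, which encodes angiotensin-converting enzyme, stood at 673 CPM in C435A members and 419 CPM in WT members, and at 737 and 707 CPM without mixed barcodes. Adgre4, an adhesion receptor of the F4/80 family, stood at 717 and 586 CPM without mixed barcodes. Spn, the sialophorin CD43, stood at 534 and 513 CPM. Treml4, a receptor of the TREM family, stood at 514 and 502 CPM, and Eno3, a muscle-type enolase, at 442 and 452 CPM. All 5 markers were found together in 67 C435A members and 37 WT members. Of the classical markers in the rule, Ly6c2, the Ly6C surface antigen, stood at 126 CPM in C435A members and 99.5 CPM in WT members, against 955 and 870 CPM in classical monocytes.

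At the threshold, 8 members held exactly 3 UMIs of the chosen markers and 11 barcodes that met every other condition held 2. The 8 just inside had Cx3cr1 at 218 CPM and Nr4a1 at 609.9 CPM, and the 11 just outside had 295 and 501 CPM. H2-Ab1 stood at 7450 CPM just inside, with its UMIs in 3 of the 8 barcodes, and at 147 CPM just outside. A few barcodes rich in class II thus lay just inside the threshold, and minimums of 2 and 5 UMIs were tried as alternatives.

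**Figure D1:**
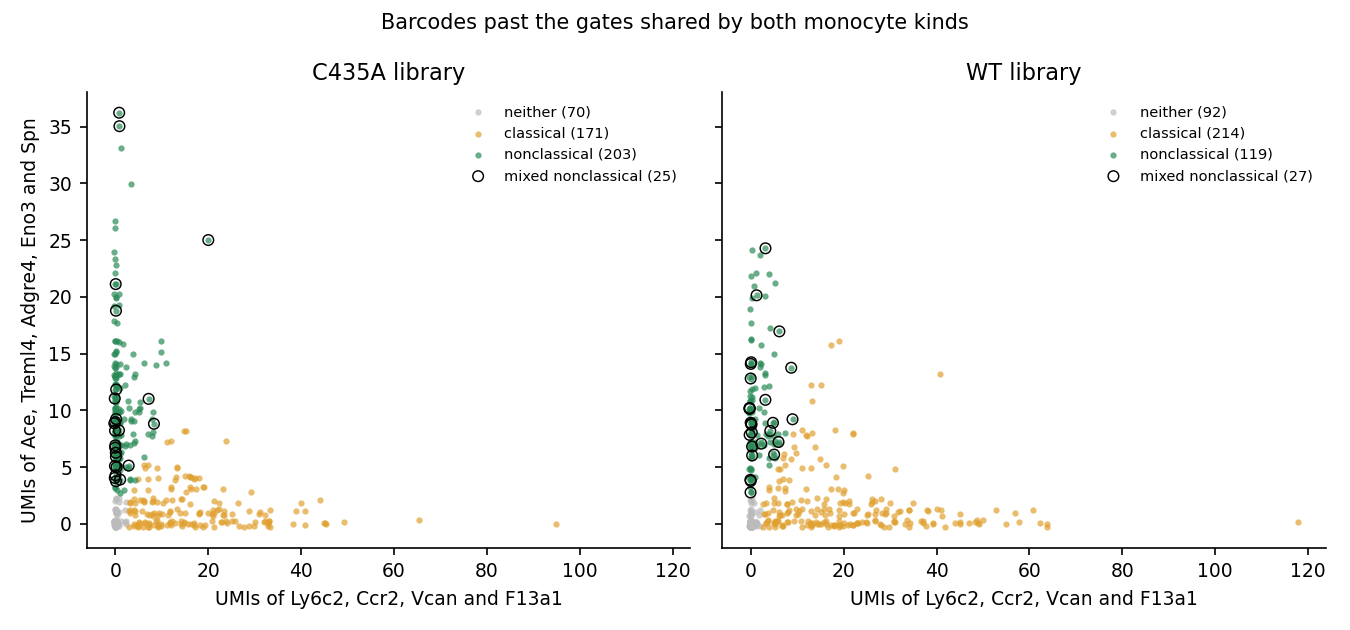
Summed UMIs of the 5 nonclassical markers (vertical axis) against the 4 classical markers (horizontal axis) for each barcode past the shared gates, C435A library left and WT library right, with a small random shift to separate points. Green points are the 203 and 119 members, orange points the 171 and 214 classical monocytes, grey points are neither, and rings mark the 25 and 27 mixed members, which lie at low and high marker sums alike.

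Cx3cr1, a marker of the label that the rule did not use, was checked across 12 cell classes. It was highest in the members in both libraries, at 598 CPM in C435A and 379.5 CPM in WT. C1q macrophages, defined by their complement C1q transcripts, came next in C435A at 467 CPM, ahead of classical monocytes at 341 CPM. In WT classical monocytes came next at 271 CPM, and C1q macrophages held 142 CPM. NK cells had 164 CPM in C435A and 214 CPM in WT, and B cells 3.77 and 4.24 CPM. At least 1 UMI of Cx3cr1 was found in 79.8% of C435A members (73.6 to 85.1%) and 77.3% of WT members (68.7 to 84.5%), both by the exact Clopper-Pearson method, at median depths of 3484 and 3976 UMIs. In classical monocytes without mixed barcodes the shares were 73.1% and 66.7% at 4866.5 and 5955.5 UMIs. In B cells, which lack the receptor, they were 0.713% and 0.743% at 2112 and 1924 UMIs. With every barcode thinned to 1000 UMIs the members' shares were 48.0% and 46.2%, with 1 C435A member and 0 WT members left out as too shallow. Those of classical monocytes were then 31.0% and 29.1%.

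Genes outside the marker list were ordered likewise. Nr4a1 stood at 1150.2 CPM in C435A members and 593 CPM in WT members, and the next class, neutrophils, held 473 and 286 CPM. Itgal stood at 1584 and 934 CPM, with NK cells next at 691 and 617 CPM. Cd300e, an activating receptor of myeloid cells, stood at 331 and 154 CPM, and no other class exceeded 11.4 CPM in C435A or 16.4 CPM in WT. The members thus held the highest levels of all 4 genes, as the name of the cell type calls for. Platelet and endothelial markers were near 0: the 4 platelet markers summed to 2 UMIs in C435A and 7 UMIs in WT, all 7 in 1 barcode, and the 4 endothelial markers to 1 and 19 UMIs, of which 12 were in 1 WT barcode. The 7 alveolar macrophage markers, 3 of them in the rule, summed to 660 CPM in C435A members and 557 CPM in WT members. Without mixed barcodes, 5 of the 7 had no UMI in C435A members and 3 had none in WT members. Chil3, also a classical monocyte marker, then supplied most of the list's 495 UMIs in C435A and 241 in WT. Over members with 0, 1 or 2, and 3 or more UMIs of the classical rule genes, it held 102, 178 and 213 UMIs in C435A. In WT it held 21, 47 and 157. Without mixed barcodes the sum is therefore mainly a measure of Chil3. The source of that RNA was not tested. This list and those of C1q macrophages, T cells and NK cells were not used to call mixed barcodes.

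**Figure D2:**
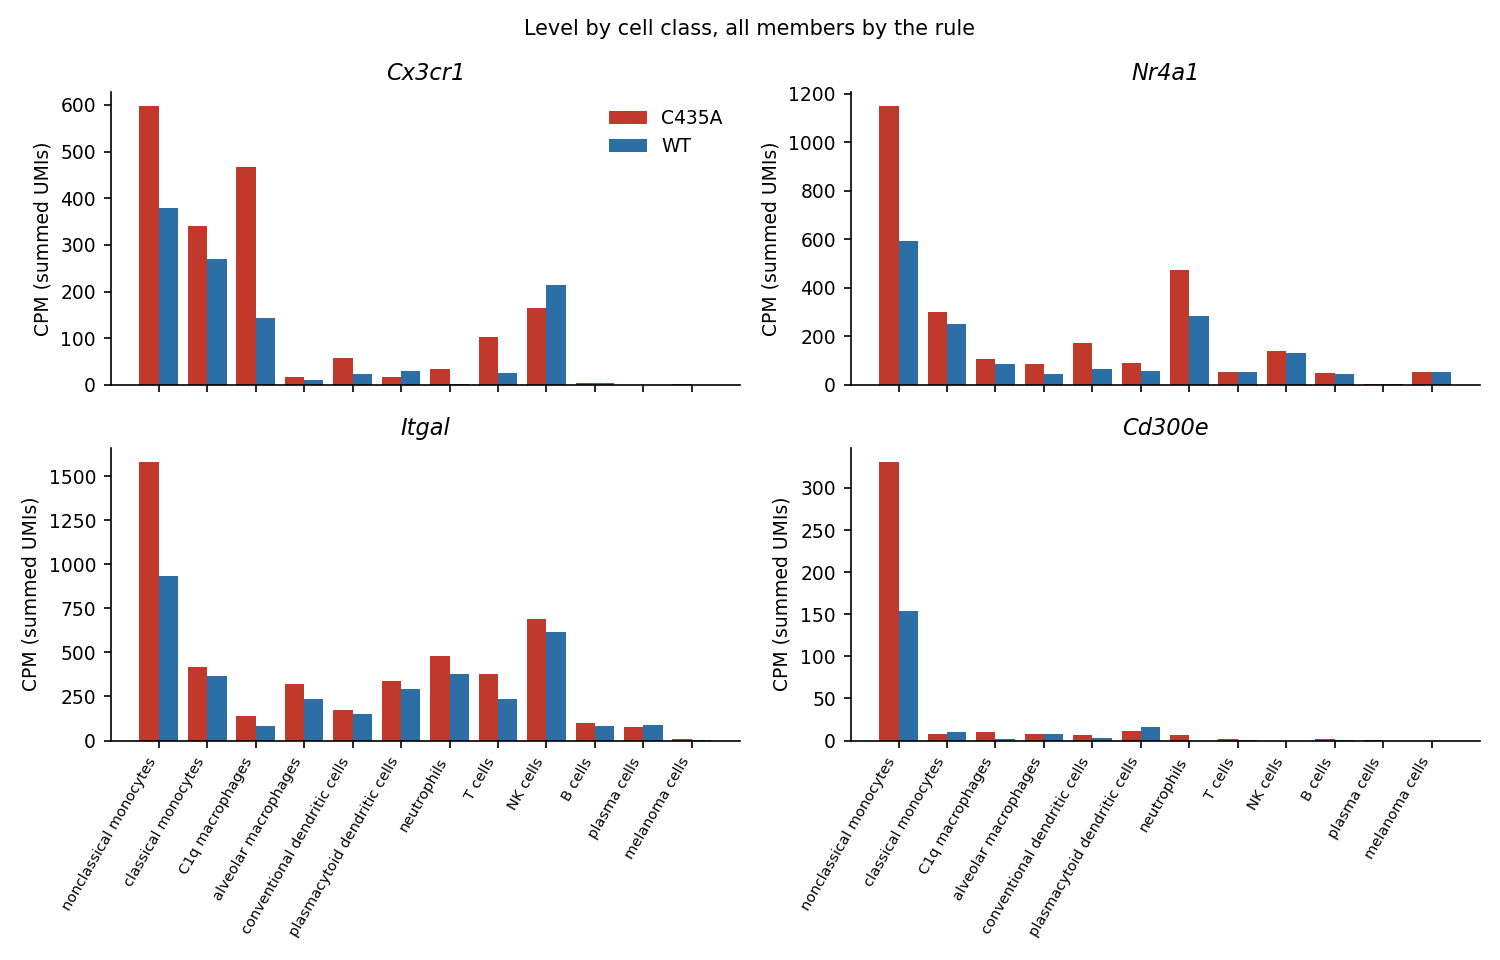
Level in CPM of Cx3cr1, Nr4a1, Itgal and Cd300e (1 panel each) in 12 cell classes, with the C435A library (red) left of the WT library (blue) and 1 summed value per class and library, so there are no error bars. Nonclassical monocytes, at the left of each panel, hold the highest bar of each gene in both libraries.

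Nonclassical monocytes made up a larger share of the C435A library. They were 1.97% of kept barcodes in C435A (1.71 to 2.26%) and 1.18% in WT (0.982 to 1.42%), a difference of 0.784 percentage points (0.444 to 1.13, Newcombe interval). Classical monocytes, gated the same way but with the classical sum the larger, stood in the opposite order, at 1.66% in C435A and 2.13% in WT. Members were therefore 54.3% of both monocyte kinds together in C435A (49.1 to 59.4%) and 35.7% in WT (30.6 to 41.1%). That is a difference of 18.5 points (11.2 to 25.6). Without mixed barcodes the shares of kept barcodes were 1.73% and 0.915%, and those of both monocyte kinds 53.3% and 34.6%, with a difference of 18.7 points (10.7 to 26.3). Classical monocytes differed less then, at 1.51% in C435A and 1.73% in WT (difference -0.219 points, -0.569 to 0.129). Shares of sorted cells also depend on how many cells of every other type were caught, and 1 library per genotype cannot separate the genotype from the library.

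Because the rule reads the classical markers too, the contrast with classical monocytes is partly built in and is given as a description. In both libraries 193 of 6286 genes outside the rule, 3.07%, were at least 2-fold higher in members than in classical monocytes without mixed barcodes, and 204, or 3.25%, at least 2-fold lower. With all barcodes the counts were 169 and 168 of 7225, which is 2.34% and 2.33%. Of the 30 nonclassical markers outside the rule, 28 were measured, having 20 UMIs or more in each library, and 21 of these were at least 2-fold higher in both libraries and 0 lower. Their median log2 ratio was 2.01 in C435A and 2.04 in WT, beside 0.04 and -0.03 over all measured genes. Of 20 classical markers outside the rule, 11 were at least 2-fold lower and 1 higher.

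The members' profile included transcription factors of their formation. Nr4a1 held 1213 CPM in members and 318 CPM in classical monocytes of the C435A library (log2 ratio 1.93, 1.72 to 2.14), and 873 against 263 CPM in the WT library (1.73, 1.49 to 1.97). Pou2f2, the octamer-binding factor Oct2, had log2 ratios of 1.80 in C435A and 2.11 in WT. Cebpb, a factor needed for the survival of these cells in mice, had 1.17 and 1.32. Tcf7l2, a Wnt pathway effector, had 2.94 and 2.63, and Hes1, a Notch target, had 2.54 and 1.69. Klf2 and Klf4, zinc-finger factors of quiescent and monocytic cells, were higher in members in both libraries, at 0.94 and 1.15 for Klf2 and 1.03 and 1.40 for Klf4. Over the 27 measured regulators of monocyte conversion, 8 were at least 2-fold higher in both libraries and 4 lower. The shares over all genes were 3.07% and 3.25%. Most of the regulators thus fell on neither side. Zeb2, linked to monocyte and macrophage identity, was lower, with -0.37 and -0.46.

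Some genes of adhesion and circulation separated the monocyte kinds. Of 22 measured genes of patrolling and adhesion, 5 were at least 2-fold higher in members in both libraries and 3 lower. The shares over all genes were 3.07% and 3.25%, and most of the list fell on neither side. Itgal stood at 1690.5 CPM in members and 478 CPM in classical monocytes of C435A, and at 1493 against 379.7 CPM in WT, with log2 ratios of 1.82 and 1.98. Its partner chain Itgb2 followed with 1.15 and 1.05. S1pr5, a sphingosine-1-phosphate receptor that NK cells and patrolling monocytes use to leave the bone marrow, had 92 UMIs in members against 8 in classical monocytes of C435A, and 55 against 6 in WT. Pecam1, the junction molecule CD31, had log2 ratios of 2.50 and 2.95. Ccr1, a receptor for inflammatory chemokines, was lower, with 1 UMI in the members of each library against 57 and 97 in classical monocytes. Cx3cr1 itself had ratios of 0.67 in C435A and 1.11 in WT, so it passed 2-fold in WT alone.

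Among receptors for antibody and lipids, the members differed from classical monocytes in the same direction in each library, by sizes that were not compared between libraries. Fcgr4, the activating receptor for IgG that marks these cells, stood at 403 CPM in members and 35.9 CPM in classical monocytes of C435A, and at 391 against 40.2 CPM in WT. Fcgr2b, the inhibitory receptor, was lower at -1.46 and -1.84, as were Fcgr3 at -1.22 and -1.04 and Fcgr1 at -1.72 and -0.66. Of 6 Fc receptor genes, Fcgr4 was thus the 1 that was at least 2-fold higher in both libraries. There were 2 at least 2-fold lower, beside 3.07% of all genes higher and 3.25% lower. Cd36, a scavenger receptor for oxidised lipids, had 3.61 and 2.49, and Fabp4, a fatty acid carrier, 6.15 and 3.57. Fabp4 and Ear2, an eosinophil-type ribonuclease with ratios of 3.31 and 3.32, were higher still in alveolar macrophages, of whose level all members reached 67.1% and 34.8% as a mean of the libraries.

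Several highly ranked genes encode signalling or surface proteins. Cd300e had ratios of 5.37 and 5.52, with 234 and 89 UMIs in members against 7 and 6 in classical monocytes. Slc12a2, a sodium, potassium and chloride cotransporter, had 4.92 and 4.32, and Dusp16, a phosphatase of stress kinases, 6.51 and 3.07. Stap1, an adaptor downstream of the Csf1 receptor, had 2.70 and 2.80, and Ltb, the membrane-bound lymphotoxin beta, 3.13 and 2.67. Pglyrp1, a peptidoglycan-binding protein, had 3.80 and 3.11. Gngt2, a G protein subunit, was the most abundant of the 20 named higher genes, at 2163 CPM in C435A members and 2412 CPM in WT members against 628 and 669.6 CPM in classical monocytes. The rest of the 20, which were Cyth3, Smpdl3b, Cd300ld, Rbpms, Fyn and Ly6i, had ratios between 2.22 and 3.79. Some of the 20 were higher in another class, as a mean of the libraries. All members reached 82.3% of the Cd300ld and 22.9% of the Pglyrp1 level of neutrophils, and 65.2% of the Cd36 level of C1q macrophages. For S1pr5 they reached 53.7% of the NK cell level, and for Tcf7l2 27.2% of the alveolar macrophage level. For Fyn they reached 23.9% of the plasmacytoid dendritic cell level, and for Ltb 12.8% of the B cell level. The others, apart from Fabp4 and Ear2, were highest in members.

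Survival genes were on the higher side. Bcl2, the antiapoptotic founder of its family, had 100 UMIs in members and 14 in classical monocytes of C435A, and 34 against 12 in WT, with ratios of 3.14 and 3.13. Bcl2a1a, Bcl2a1b and Bcl2a1d, near-identical copies whose reads may be shared between them, had 2.37, 1.47 and 1.62 in C435A and 1.38, 0.67 and 1.49 in WT. Mcl1 had 0.31 and 0.05. Of 13 measured survival genes, 4 were at least 2-fold higher in both libraries and 0 lower, beside 3.07% and 3.25% of all genes.

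The lower genes included matrix proteins and chemokines of inflammatory monocytes. Spp1, which encodes osteopontin, had 5 UMIs in members against 504 in classical monocytes of C435A, and 31 against 2161 in WT. Fn1, which encodes fibronectin, had 40 against 1409 and 37 against 1617. The chemokine Ccl2 had 4 against 155 and 2 against 234, and Ccl7 had 0 against 84 and 0 against 101. Ccl24 had 1 against 59 and 0 against 576. Arg1, arginase 1, had 0 against 85 and 1 against 109, and the collagenase Mmp8 had 3 against 87 and 3 against 202. Among 11 measured inflammatory cytokines, 6 were at least 2-fold lower in both libraries and 0 higher, beside 3.25% and 3.07% of all genes. Il1b and Tnf were close to level, with ratios of -0.07 and -0.02 for Il1b and 0.22 and 0.16 for Tnf. Ly6a2, Clec4a2 and AI839979, also among the named lower genes, had ratios between -2.39 and -3.15. Lyz2, lysozyme, remained abundant in members, at 13031 CPM in C435A and 16078 CPM in WT, against 32717 and 29849 CPM in classical monocytes.

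Part of the type I interferon list stood lower in members than in classical monocytes. Of 45 measured genes, 11 were at least 2-fold lower in both libraries and 0 higher, beside 3.25% and 3.07% of all genes, with medians of -0.83 in C435A and -0.89 in WT. Ms4a4c had -1.54 and -1.61. Irf7, the gene named in the genotype label, stood at 143 CPM in members and 151 CPM in classical monocytes of C435A. In WT it stood at 113 against 152 CPM, and the interval of the ratio spanned 0 in each library. Ifitm3, an antiviral membrane protein, was close to level at -0.20 and 0.07. The class I genes H2-K1 and H2-D1 were higher in members in both libraries but under 2-fold, with ratios of 0.96 and 0.98 for H2-K1 and 0.47 and 0.82 for H2-D1. The class I list as a whole was close to level. Of 16 measured genes, 1 was at least 2-fold higher in both libraries and 0 lower, beside 3.07% and 3.25% of all genes. The list medians were 0.27 in C435A and 0.07 in WT.

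**Figure D3:**
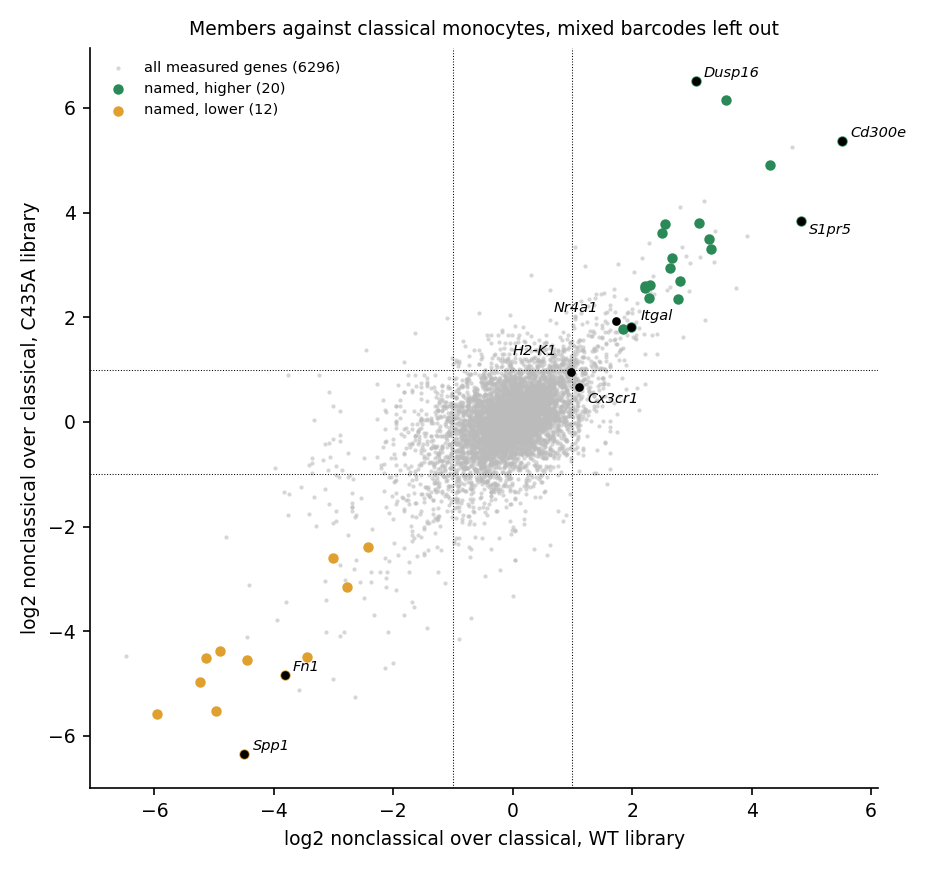
Log2 ratio of members over classical monocytes in the C435A library (vertical axis) and the WT library (horizontal axis) for 6296 measured genes, mixed barcodes left out and 1 summed value per gene and library. Dotted lines mark 2-fold, green points the 20 named higher genes and orange points the 12 named lower genes, and Cd300e, Dusp16 and S1pr5 lie far up both axes while Spp1 and Fn1 lie far down both.

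Members were not all alike. Without mixed barcodes they were divided by the UMIs of the 4 classical markers that the rule tolerated: 111 C435A and 48 WT members held 0, 34 and 17 held 1 or 2, and 33 and 27 held 3 or more. The median depth differed too, at 2827, 3838 and 4515 UMIs in C435A and 2516.5, 3369 and 5034 UMIs in WT, so deeper barcodes had more chance of a classical UMI. Fcgr4 stood at 577, 282 and 122 CPM over these strata in C435A and at 637, 141 and 272 CPM in WT. Cd36 stood at 469, 259 and 141 CPM in C435A and at 478, 198 and 66.1 CPM in WT. Itgal was flatter, at 1899.6, 1712 and 1212 CPM in C435A and 1731, 1611 and 1191 CPM in WT, and Cx3cr1 likewise, at 670.1, 685 and 494 CPM in C435A and 753, 721 and 536 CPM in WT. H2-Ab1 ran the other way, at 579.8, 1164 and 1661 CPM in C435A and 1202, 1950.4 and 2190.1 CPM in WT. Cd36 was thus lower and H2-Ab1 higher in each next stratum of both libraries, whereas Fcgr4 followed that order in C435A alone.

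MHC class II was concentrated in a minority. At least 10 UMIs of H2-Aa, H2-Ab1 and H2-Eb1, the chains of the surface class II molecule, were found in 39 of 178 C435A members (21.9%, 16.1 to 28.7%) and 20 of 92 WT members (21.7%, 13.8 to 31.6%). These barcodes held 93.3% of the members' class II UMIs in C435A and 96.0% in WT, and 49.4% and 39.1% of members held none. Their median depths were 4561 UMIs in C435A and 5648 UMIs in WT, against 3064 and 3089.5 UMIs in the others. Deeper barcodes thus had more chance of reaching 10 UMIs. In the class II high barcodes Fcgr4 stood at 139 CPM in C435A and 187 CPM in WT, against 503 and 484 CPM in the others. Nr4a1 stood at 872 and 550.4 CPM in them, against 1342 and 1018 CPM in the others. Flt3, which marks conventional dendritic cells, had 0 and 1 UMI in the class II high barcodes, and Cd209a, a marker of monocyte-derived dendritic cells, 5 and 3 UMIs. Both genes are in the conventional dendritic cell list, and barcodes with at least 10 UMIs of that list had been left out as mixed. Their low counts were therefore partly set by the choice and do not tell what these barcodes are.

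Between the libraries, the class I genes H2-K1, H2-Q6 and H2-Q7 were higher in C435A members whether or not mixed barcodes were kept. H2-K1, which encodes the heavy chain of the classical class I molecule H-2K (GRCm38, chr17:33996012-34000619), stood at 4502 CPM in C435A members and 2082 CPM in WT members, a log2 ratio of 1.11. Without mixed barcodes it stood at 4451 and 2659 CPM, a log2 ratio of 0.74 (0.64 to 0.85). H2-Q7, a nonclassical class I gene of the Qa-2 group (chr17:35439140-35443773), stood at 566 and 203 CPM without mixed barcodes (1.48, 1.11 to 1.87). H2-Q6 (chr17:35424850-35430055) stood at 116 and 23.2 CPM (2.32, 1.27 to 3.58). With all members the ratios were 1.55 for H2-Q7 and 2.33 for H2-Q6. H2-Q6 and H2-Q7 are near-identical copies, so how their reads were shared out is uncertain, and they are best read together. Their windows of 300 bases, which span a RefSeq start of transcription, show how alike they are, and are printed with that of H2-K1 because these class I genes were higher in C435A members in both settings. The sequences are from RefSeq on GRCm38.p6, 5' to 3' on the gene's strand, with capitals marking an NF-kB element (GGGATTCCC) and the core of an interferon-stimulated element (GTTTCACTT).
H2-K1 (minus strand, chr17:34000298-34000597): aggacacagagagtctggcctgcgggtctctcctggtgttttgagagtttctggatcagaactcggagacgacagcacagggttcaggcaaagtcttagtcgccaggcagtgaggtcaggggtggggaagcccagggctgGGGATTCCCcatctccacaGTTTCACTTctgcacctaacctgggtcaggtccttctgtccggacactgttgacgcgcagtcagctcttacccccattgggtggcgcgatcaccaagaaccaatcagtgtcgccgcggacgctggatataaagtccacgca
H2-Q6 (plus strand, chr17:35424600-35424899): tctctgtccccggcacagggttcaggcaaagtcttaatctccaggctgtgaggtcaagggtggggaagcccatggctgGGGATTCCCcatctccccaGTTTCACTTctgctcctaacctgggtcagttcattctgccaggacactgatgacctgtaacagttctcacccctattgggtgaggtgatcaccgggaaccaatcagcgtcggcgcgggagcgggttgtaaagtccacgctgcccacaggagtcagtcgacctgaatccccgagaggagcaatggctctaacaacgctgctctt
H2-Q7 (plus strand, chr17:35438905-35439204): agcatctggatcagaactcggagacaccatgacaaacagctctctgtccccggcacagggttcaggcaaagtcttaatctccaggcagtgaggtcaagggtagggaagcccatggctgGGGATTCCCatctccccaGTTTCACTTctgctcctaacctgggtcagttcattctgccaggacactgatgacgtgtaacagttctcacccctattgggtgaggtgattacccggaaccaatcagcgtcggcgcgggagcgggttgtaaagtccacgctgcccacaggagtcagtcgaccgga

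All 3 windows held both elements, and the H2-Q6 and H2-Q7 windows shared an unbroken run of 67 bases, against 24 bases between either of them and H2-K1. On either strand, GTTTCACTT was found in 0.399% of 32851 RefSeq promoter windows of the same length, a set without chr18. GGGATTCCC was found in 0.353% of them, and 5 windows held both. Of the 17 genes of the class I list, 15 had a window, 7 of these held the first element and 4 held both, which were H2-K1, H2-D1, H2-Q6 and H2-Q7. A match of letters is a description of the window and does not show binding. H2-D1 stood at 3272 CPM in C435A members and 3227 CPM in WT members without mixed barcodes (0.02, -0.09 to 0.13). With mixed barcodes its log2 ratio was 0.51. Whether the elements bear on the levels was not tested.

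Within the class I list, 10 of 17 measured genes were at least 1.5-fold higher in C435A members and 0 lower, with a median log2 ratio of 0.70. Over all 7219 genes outside the rule that had 20 UMIs or more in the libraries together, 16.3% were at least 1.5-fold higher in C435A and 20.2% lower, with a median of 0.02 over all measured genes. That is 1179 higher and 1455 lower, a split that turned to 1511 and 1265 with median-ratio scaling, which moves every ratio by 0.10. Without mixed barcodes, 5 of 16 were higher and 0 lower, with a median of 0.38. The background was then 14.6% higher and 9.15% lower of 5652 genes, with a median of 0.05. The 5 were H2-K1, H2-Q6, H2-Q7, H2-T22 (0.76) and H2-M3 (1.00), the last a presenter of formylated peptides. B2m, the shared light chain, stood at 5441 CPM in C435A members and 4599 CPM in WT members (0.24, 0.16 to 0.33). The peptide transporter Tap1 (0.30) and the proteasome subunits Psmb8 (-0.09), Psmb9 (0.46) and Psmb10 (-0.16) lay under 1.5-fold.

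The difference in H2-K1 was spread over the barcodes. The median barcode held 45.6 UMIs of H2-K1 per 10000 in C435A members (quartiles 30.8 and 59.8) and 25.1 in WT members (17.9 and 35.7). For H2-Q7 it held 4.44 in C435A members and 0 in WT members, and no barcode held over 2.24% of the H2-Q7 UMIs in C435A or 5.71% in WT. Split by class II, H2-K1 was higher in C435A members on both sides, with a log2 ratio of 0.73 in class II high barcodes and 0.72 in the others. H2-Q7 had 2.12 and 1.31. Classical monocytes showed like values, 0.76 for H2-K1 and 1.41 for H2-Q7. Other classes did not all do so: with all barcodes, H2-K1 stood at 2192 CPM in C435A and 807 CPM in WT neutrophils, but at 2956 and 3215 CPM in T cells and 1752 and 1770.1 CPM in alveolar macrophages.

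**Figure D4:**
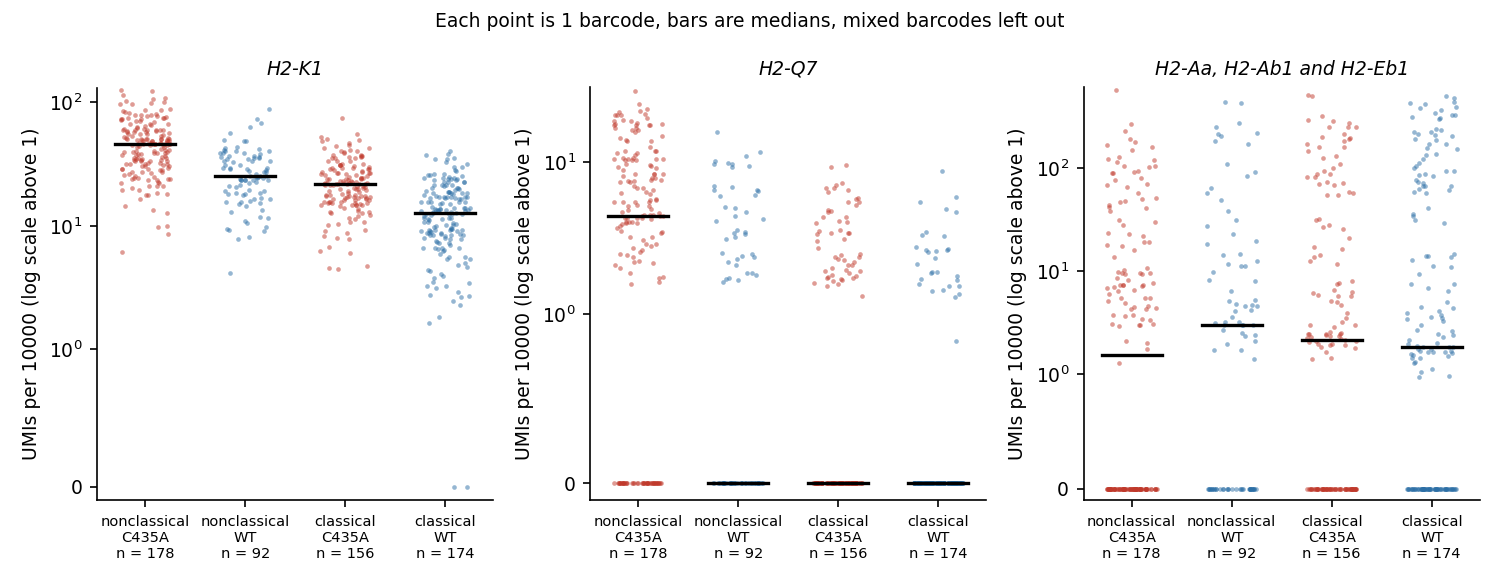
UMIs per 10000 of H2-K1, H2-Q7 and the 3 class II genes H2-Aa, H2-Ab1 and H2-Eb1 (1 panel each, log scale above 1) in each nonclassical and classical monocyte barcode, C435A (red) left of WT (blue) within each kind, mixed barcodes left out. Black bars are medians over barcodes of 1 library: for H2-K1, 45.6 in C435A and 25.1 in WT nonclassical monocytes, and 21.6 and 12.7 in classical monocytes.

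Class II genes stood in the opposite order once mixed barcodes were left out. Of 8 measured genes, 4 were at least 1.5-fold lower in C435A members and 0 higher, with a median of -0.54, beside 9.15% of all genes lower and 14.6% higher. The 4 were H2-Eb1 (642 CPM in C435A members and 1340 CPM in WT members, -1.06), H2-Ab1 (969 and 1745 CPM, -0.85), H2-DMa (-0.59) and the invariant chain Cd74 (3470 and 5871 CPM, -0.76). With all members, 1 of 9 was higher and 1 lower, with a median of -0.09 that turned to 0.013 with median-ratio scaling. The share of class II high barcodes was the same in each library to within its interval, as given above, and 1 barcode held 21.6% of the H2-Eb1 UMIs of WT members. In the 139 C435A and 72 WT members with under 10 class II UMIs, the intervals of H2-Eb1 (0.45, -0.78 to 1.83) and H2-Ab1 (-0.23, -0.85 to 0.41) spanned 0, and Cd74 was lower (-1.11, -1.31 to -0.91). That limit caps H2-Eb1 and H2-Ab1 themselves in both libraries. It left 21 and 8 UMIs of H2-Eb1 and 59 and 36 UMIs of H2-Ab1, so these intervals cannot show equal levels. The median barcode held 1.53 class II UMIs per 10000 in C435A members and 3.01 in WT members. In classical monocytes the class II list had a median of -0.28, with 0 genes at 1.5-fold either way.

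Most genes that mark nonclassical monocytes differed by under 1.5-fold between the libraries without mixed barcodes. Cx3cr1 stood at 629.6 CPM in C435A members and 661 CPM in WT members (-0.07, -0.31 to 0.17), Fcgr4 at 403 and 391 CPM (0.04) and Pou2f2 at 1132 and 992 CPM (0.19). Nr4a1 was higher in C435A members, at 1213 and 873 CPM (0.48, 0.28 to 0.67), a difference under 1.5-fold. Of the 28 measured nonclassical markers outside the rule, 3 were at least 1.5-fold higher in C435A members and 1 lower, with a median of 0.18. These counts are no larger a share than the 14.6% and 9.15% over all genes. The 3 were Dusp5, a phosphatase of ERK (1.19), Bcl2a1b (1.05) and Cd274, which encodes PD-L1 (0.78, with 69 and 22 UMIs), and Ceacam1 was the lower one (-0.59). At any size of difference, the counting interval lay above 0 for 10 of the 28 markers and below 0 for 3. With all members, 21 of the 28 were at least 1.5-fold higher in C435A, with a median of 0.74. In that setting 51.0% of the WT members' UMIs came from mixed barcodes, so the CPM of every monocyte gene in WT was set against a total that also held other cells' RNA.

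Immediate early genes differed in part. Dusp1, which encodes a phosphatase of stress kinases, stood at 877 CPM in C435A members and 510.3 CPM in WT members (0.78, 0.53 to 1.03), and Fos at 725 and 464 CPM (0.64, 0.38 to 0.91). Jun was lower, at 408 and 583 CPM (-0.52, -0.79 to -0.24). Of 19 measured genes, 5 were at least 1.5-fold higher and 0 lower, with a median of 0.39 without mixed barcodes, beside 14.6% and 9.15% of all genes. With all members 8 were higher and 1 lower, beside 16.3% and 20.2%. Pim1, a survival kinase, stood at 450.4 and 217 CPM (1.05, 0.68 to 1.44), and Spata13, a guanine nucleotide exchange factor, at 212.5 and 81.2 CPM (1.39, 0.79 to 2.03). Immediate early genes also respond to tissue digestion, and whether handling differed was not tested.

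Of 33 measured genes of the type I list, 0 were at least 1.5-fold higher and 8 lower in C435A members without mixed barcodes, with a median of -0.24, beside 14.6% and 9.15% of all genes. Rtp4, a chaperone of receptors, had 19 UMIs in C435A members and 31 UMIs in WT members (-1.58), and Isg15, a ubiquitin-like modifier, had 18 and 22 UMIs (-1.16). Ifitm3 stood at 3790.1 and 5042 CPM (-0.41, -0.50 to -0.32). Irf7 had 90 and 39 UMIs (0.34, -0.22 to 0.92), so it did not differ beyond counting error. With all members, 3 of 43 were higher and 8 lower, beside 16.3% and 20.2%. In classical monocytes without mixed barcodes, 2 of 49 were higher and 12 lower, with a median of -0.27.

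**Figure D5:**
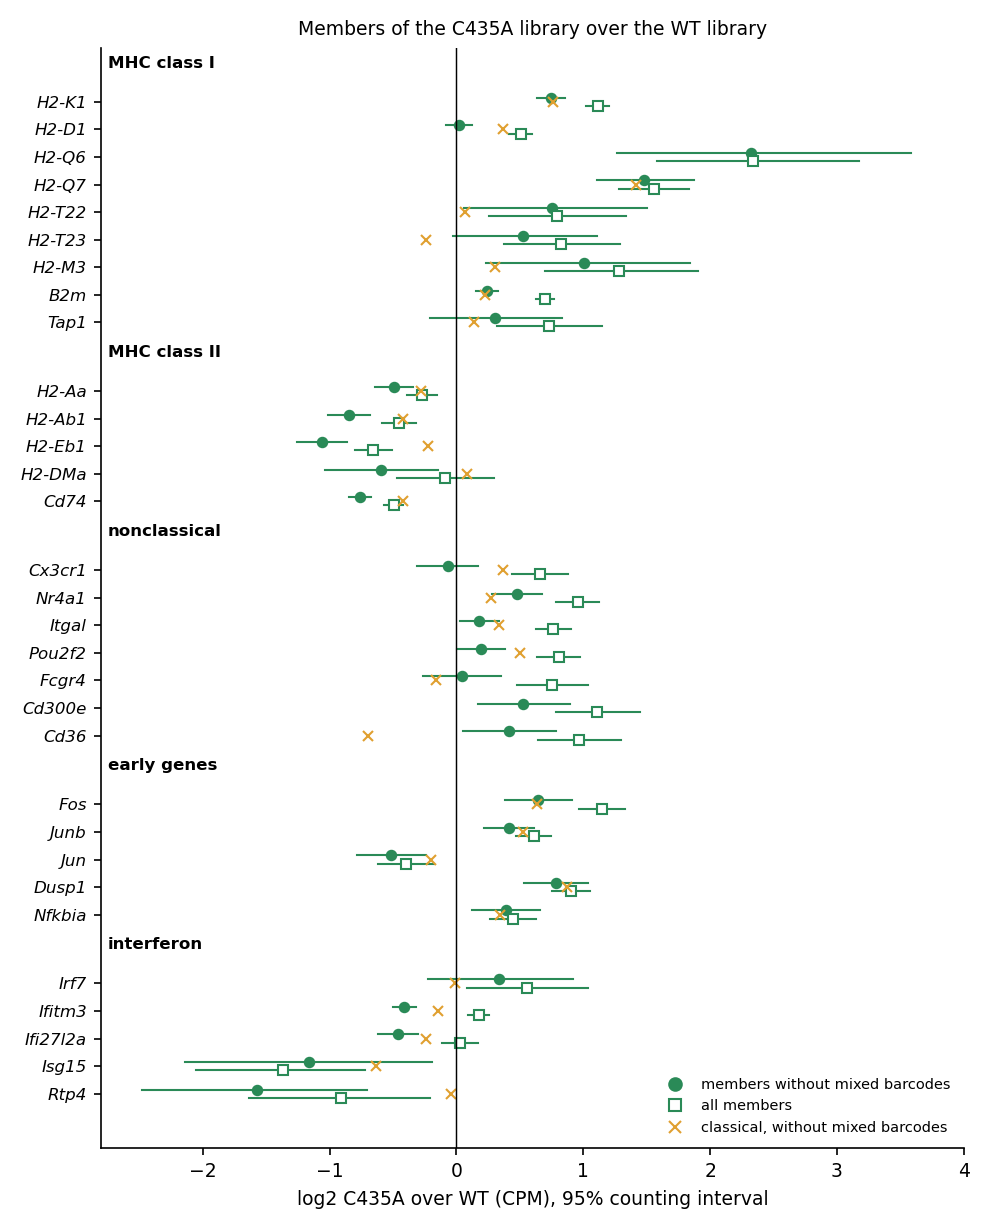
Log2 ratio of C435A over WT for named genes of 5 groups in members without mixed barcodes (filled circles) and in all members (open squares), each with its 95% counting interval, and in classical monocytes (crosses). The class I genes H2-K1, H2-Q6 and H2-Q7 lie above 0 in both settings, and Cx3cr1 moves to near 0, at -0.07, once mixed barcodes are left out.

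Some other named genes were concentrated in few barcodes or were more abundant in other cell classes. Ccl5, a T cell and NK cell chemokine, ranked first without mixed barcodes, with 133 UMIs in C435A members and 3 in WT members (4.60, 3.02 to 6.90), and had 0.73 with all members. Of the 133 UMIs, 1 barcode held 24.1%. The level in all members, as a mean of the libraries, was 1.90% of that in NK cells, of which the libraries held 765 and 324. Ccl5 was found in 34.8% of C435A members and 3.26% of WT members, and in 25.8% and 7.35% of B cells. With every barcode thinned to 1000 UMIs, the members' shares were 14.7% and 2.17% and those of B cells 11.6% and 2.91%. The part of free RNA in this difference was not tested. Cxcl2, a neutrophil chemokine, had 74 and 6 UMIs, with 33.8% of the C435A UMIs in 1 barcode, and stood at -0.39 with all members. The lowest genes without mixed barcodes were Cd63, Lpl, Mt1 and Ctsd, of which 1 WT barcode each held 72.1%, 94.4%, 52.5% and 51.2% of the UMIs.

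The remaining genes named by rank were spread over more barcodes. Zfp36l1, an RNA-decay factor, stood at 258 and 78.3 CPM (1.72), and Thrap3, Dstyk, Hexim1 and Ifrd1 had ratios between 1.54 and 1.88 on 8 to 15 UMIs in WT members. On the lower side, Apoe, the lipid carrier, stood at 2133 CPM in C435A members and 3865 CPM in WT members (-0.86, -0.97 to -0.75). C1q macrophages are rich in Apoe, and the summed C1q macrophage markers stood at 2203 CPM in C435A members and 3978 CPM in WT members. Apoe is itself in that list and supplied 1345 of its 1389 UMIs in C435A and 1333 of 1372 in WT. The sum is therefore not a measure separate from Apoe. The part of C1q macrophage RNA in the difference was not tested. Wfdc17 (-1.11), the thiol reductase Ifi30 (-1.10) and the sterol enzyme Hmgcs1 (-1.41) were also among the named lower genes.

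With all members, the 12 genes ranked lowest were Syt4, Dct, Tyrp1, Pmel, Ptgds, Gpnmb, Mlana, Chchd10, Rab38, Slc24a5, Cited1 and Syngr1, each at its highest in melanoma cells among the classes. Dct, the most abundant, had 9 UMIs in C435A members and 1340 in WT members, 34.0% of them in 1 barcode. Among the 12 ranked highest were H2-Q6, Gm26532, Spata13, Nr4a2, H2-Q7, Cd14, Slc12a2, H2-K1, Fos, Ptk2b and Fgd4. Without mixed barcodes their log2 ratios lay between 0.54 for Ptk2b and 2.52 for Gm26532, with Ptk2b under 1.5-fold and the interval of Cd14 (0.79, -0.17 to 1.86) spanning 0. Lists that moved when mixed barcodes were left out included glycolysis, at -1.23 with all members and -0.03 without, and nuclear oxidative phosphorylation, at -0.90 and -0.10. Of the genes called higher with all members and measured in both settings, 462 of 1000, or 46.2%, were also called without mixed barcodes, and 288 of 729, or 39.5%, of those called lower.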

How the data were processed

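The data were 2 single-cell RNA libraries, 1 per labelled genotype. The authors deposited, per library, a matrix of UMI counts per gene and barcode, made with Cell Ranger on GRCm38 per the submitters' processing notes, and version 7.2.0 per the file headers. The labels' protocols name both BD Rhapsody and 10x Chromium capture, and which was used is not settled here. A second text table per library was not used. The libraries held 10373 and 10156 barcodes with median depths of 3401 and 2785 UMIs and 59615672 and 54934397 UMIs in all.

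Barcodes with at least 500 UMIs and under 20% mitochondrial UMIs were kept. UMIs of members were summed per library and scaled to CPM. Ratios have exact conditional intervals of 2 Poisson counts at 95%, shares exact Clopper-Pearson intervals, and a count of 0 was set to 3 UMIs in ratios. The levels of thinned barcodes come from 1000 UMIs drawn per barcode. Differences of shares have Newcombe intervals. Genes needed at least 20 UMIs, and 1.5-fold (log2 0.58) was called between libraries and 2-fold against classical monocytes. With 1 library per group no test was made. The ratio and interval code was checked on simulated data. Doublets were scored with Scrublet in scanpy 1.11.5 and were removed only in an alternative. Normalization factors came from edgeR 4.0.16; python 3.11.15, numpy 2.4.6, scipy 1.17.1 and pandas 2.3.3 were used.

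Named genes had at least 50 UMIs and 50 CPM, leaving out the genes of the rule and mitochondrial, receptor-segment and sex-linked genes. They were the 12 highest and 12 lowest between libraries, and the 20 highest and 12 lowest against classical monocytes, ranked by the interval bound nearest 0, plus members of the gene lists. The ranking without mixed barcodes was added after the data were seen, as were the division by class II and the promoter elements. The members and lists were chosen with earlier results of these data known. Some named genes are not reported here.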

Additional observations from a re-analysis of the deposited data

Results flagged for a closer look

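Lpl, which encodes lipoprotein lipase, stood in opposite order between the libraries in the monocyte kinds without mixed barcodes. Its log2 ratio of C435A over WT was -1.91 in nonclassical monocytes and 0.84 in classical monocytes, and the difference between these was not tested. In nonclassical monocytes it rested on 35 UMIs in C435A members and 72 UMIs in WT members, of which 1 WT barcode held 94.4%.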

How the results depend on the processing

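No paired analysis was possible because each group had 1 library, and for the same reason no library could be left out. The difference in the members' share of kept barcodes lay between 0.604 and 0.967 points over 7 alternatives, and that of their share of both monocyte kinds between 17.98 and 19.8 points, all with the sign reported. H2-K1 and H2-Q7 stayed at 0.74 to 1.63 and 1.34 to 2.03 over 13 alternatives. The counts of genes higher and lower, 1179 and 1455 as reported, were 415 and 299 with each member thinned to 1000 UMIs, 706 and 653 with a minimum of 50 UMIs, 3486 and 4490 with a minimum of 1, and 517 lower without mixed barcodes. Of 24 list medians, 7 passed 1.5-fold as reported, 18 in members with no classical UMI, 1 with cells weighted alike, and 0 both without mixed barcodes and when thinned. The class II median of -0.09 became -0.49 in members with no classical UMI, -0.28 without Scrublet doublets, -0.54 without mixed barcodes, -0.35 with cells weighted alike, -0.48 when thinned and -0.28 with a minimum of 50 UMIs. The median of nonclassical markers outside the rule, 0.74, became 1.09 in members with no classical UMI, 0.18 without mixed barcodes, 0.24 with cells weighted alike and 0.25 when thinned. The early gene median of 0.52 became 0.084 with cells weighted alike and 0.24 when thinned. Cell cycle, -1.75, turned to 0.066 without mixed barcodes, 0.050 with cells weighted alike and 0.046 when thinned, and Cx3cr1, 0.66, to -0.070 without mixed barcodes and -0.055 when thinned. Against classical monocytes, 168 lower genes became 59 when thinned, and 169 higher and 168 lower became 106 and 94 with a minimum of 50 UMIs. Fewer genes were tested under thinning and the higher minimum; other causes were not tested. The division without mixed barcodes was chosen after seeing the data. At a median of 3314.5 and 3291 UMIs a member, low genes rest on few UMIs, so genes such as Isg15 carry wide intervals.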

Other observations

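Other gene lists of the nonclassical monocytes were compared between the libraries without mixed barcodes, beside 14.6% of genes at least 1.5-fold higher and 9.15% lower. Of 11 heat shock genes, which encode chaperones, 0 were higher and 2 lower in C435A members, with a median log2 ratio of -0.45, and 0 higher and 6 lower with all members, with a median of -0.60. Of 14 genes of lipid handling and scavenging, 0 were higher and 5 lower, with a median of -0.17, but with all members 5 of 15 were higher and 3 lower, with a median of 0.40. Of 19 lysosomal proteases and lysozymes, 0 were higher and 5 lower, with a median of -0.25. Of 13 survival genes, 3 were higher and 0 lower, with a median of 0.25. Of 14 S100 and calcium-binding genes, 0 were higher and 2 lower, with a median of -0.48. Neither the differences between lists nor their causes were tested.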
